A study of Homo sapiens with 18 samples.

Results

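The genes described here encode the receptor of type I interferon (IFNAR1, IFNAR2), its 2 kinases (JAK1, TYK2), a signal transducer (STAT2) and 4 interferon regulatory factors (IRF1, IRF3, IRF7, IRF9). These 9 members were taken by name from the 62703 genes of the deposited files. The list applies no filter on a measured value, but it was chosen with earlier results of these data known. All 9 passed the filter on low counts in every comparison. The study sequenced messenger RNA of MDA-MB-231, a breast cancer line of the triple-negative kind, in 10 distinct libraries that form 5 groups of 2. In the knockdown experiment, cells took up lentivirus for 24 h and were then kept for 72 h in puromycin at 2 ug/ml. The virus carried a short hairpin RNA aimed at EZH2 (shEZH2), at E2F1 (shE2F1) or at neither (control shRNA), so that the controls were transduced and selected too. The drug experiment exposed cells for 72 h to 1 uM GSK126, which blocks the catalytic site of EZH2, or to its solvent DMSO. EZH2 is the enzyme of Polycomb repressive complex 2, and E2F1 drives genes of DNA replication. All groups are cultures of 1 cell line, and the group names give 1 hairpin for each target, with no second hairpin to set beside it.

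Type I interferons are cytokines that a cell secretes on sensing foreign or misplaced nucleic acid. They bind a receptor of 2 chains, IFNAR1 and IFNAR2, to which the kinases TYK2 and JAK1 are bound, and the kinases phosphorylate STAT proteins. STAT2 and IRF9 then form part of the factor ISGF3, which enters the nucleus and binds interferon-stimulated response elements (ISRE) before its target genes. IRF3 and IRF7 act at the start of the circuit, where kinases downstream of nucleic acid sensors phosphorylate them and they switch on the interferon genes. IRF1 is itself induced by interferon-gamma and activates genes of antigen presentation.

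Expected counts per library ran from 13198932 to 20055550, and levels are given as CPM, the counts of a gene scaled to a common library total by TMM. All log2 fold changes, with their standard errors (SE) and adjusted p, come from edgeR's quasi-likelihood test over all genes. In this text a gene rose or fell where its adjusted p was under 0.01, and it was called where the change was also more than 2-fold. The labels number the replicates but do not say that they were separate cultures, so that p measures the spread between these libraries, which may be technical. The targets were lower where the labels place their hairpins: EZH2 had 167 ± 20.6 CPM in control shRNA and 48.5 ± 5.95 CPM in shEZH2 (SD, n = 2), and E2F1 had 141 ± 2.6 CPM in control shRNA and 24.0 ± 2.39 CPM in shE2F1. E2F1 also fell in shEZH2, to 62.5 and 31.9 CPM, a change of -1.59 ± 0.23 (SE) at an edgeR adjusted p of 1.72e-04, so that its transcript was lower in both knockdowns. VIM, a mesenchymal marker of this line, was at 1266 CPM or more in every library, and ESR1 and PGR, the hormone receptors that the line lacks, were at 0.214 CPM or less. ERBB2, the gene of HER2, was at 45.6 to 90.1 CPM, and of the luminal markers EPCAM was at 10.3 to 34.1 CPM, GATA3 at 8.59 to 16.3 CPM, CDH1 at up to 9.73 CPM and FOXA1 at up to 0.285 CPM. The summed level of 6 leukocyte markers stayed between 0.422 and 1.88 CPM in every library, with CD3E at 0. Other marker sums moved with shEZH2. The sum of 5 mesenchymal markers of the line was 3699 to 3932 CPM there against 7001 to 7647 CPM in control shRNA and 5206 to 5315 CPM in shE2F1. The sum of 4 fibroblast markers was 48.1 to 66.2 CPM against 17.4 to 20.6 CPM and 13.4 to 13.7 CPM, with COL1A1 at up to 62.2 CPM and DCN at 0, and that of 3 endothelial markers was 2.87 to 3.36 CPM against 0.529 to 0.603 CPM and 1.23 to 1.80 CPM, with CDH5 at no more than 0.0754 CPM. The part of these shifts in the changes of the members was not tested. In bulk RNA, fewer cells with a transcript and less of it per cell cannot be told apart.

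Some libraries stood apart in ways that touch these genes. Control shRNA replicate 1 was higher than replicate 2 for 7 of the 9 members and for 34 of 39 target genes of ISGF3. The median difference over all 9 members was 0.39 on the log2 scale. Of the same 39 targets, replicate 1 was the higher for 30 in DMSO, 25 in GSK126, 20 in shEZH2 and 19 in shE2F1. Over all genes, 48.2% were higher in replicate 1 of control shRNA, 48.9% in that of DMSO and 48.5% in that of GSK126. The changes in shEZH2 also followed the GC content of the genes, with r = -0.24 over 15366 genes, where genes are not independent. The median change was 0.22 in the 10% of genes lowest in GC content and -0.51 in the 10% highest, against 0.01 and 0.03 in shE2F1. The members span much of that range, from 42.9% for IFNAR1 to 66.9% for IRF7. The change of each member in shEZH2 is therefore given below also with an offset for GC content and gene length.

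Sequence before the start sites was searched for the elements through which these factors act, since the members include both the factors and some of their known targets. RefSeq promoter windows of GRCh38.p14, 300 bases around a start site, were at hand for 6 members (IFNAR1, JAK1, TYK2, STAT2, IRF1, IRF9) in 9 entries. No window held the core of the ISRE, GAAA followed after 2 bases of any kind by GAAA, which 3.57% of 35116 promoters hold, nor TTTNNCGC, a form of the E2F site, which 6.89% hold. The shorter form GAANNGAAA stood in the window of IRF9 and in 7.66% of all promoters. TTCNNNGAA, the site to which STAT dimers bind (GAS), stood in the windows of IRF1 and IRF9 and in 7.66% of all promoters. Both strands were searched, and the motif is in capitals below. These matches describe letters only.
IRF9, shorter ISRE form, chr14:24161219-24161248, plus strand: ccctggaggaGAACTGAAActtagggtggg
IRF9, GAS, chr14:24161192-24161221, plus strand: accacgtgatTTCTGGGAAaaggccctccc
IRF1, GAS, chr5:132490878-132490907, minus strand: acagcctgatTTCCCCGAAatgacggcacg

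Levels of different genes were compared as TPM, which is scaled by length. In control shRNA the order of mean TPM was IRF3 (112), JAK1 (65.2), TYK2 (61.6), IRF1 (55.5), IFNAR1 (21.6), STAT2 (14.0), IRF9 (10.9), IRF7 (9.06) and IFNAR2 (6.86). JAK1, TYK2 and IRF1 overlapped in their library ranges, as did STAT2, IRF9, IRF7 and IFNAR2 from each to the next. IRF3 stood above the rest without overlap in control shRNA, shE2F1, DMSO and GSK126, and JAK1 took that place in shEZH2. There, IRF3 was at 63.9 and 51.0 TPM, within the range of IRF1 at 48.0 and 74.5 TPM. Of the 9 genes, IFNAR2 had the lowest mean TPM in control shRNA, shE2F1, DMSO and GSK126, and IRF7 had the lowest in shEZH2. In shE2F1 the ranges of IFNAR2 (12.6 and 13.2 TPM) and IRF7 (17.4 and 11.9 TPM) overlapped.

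**Figure D1:**
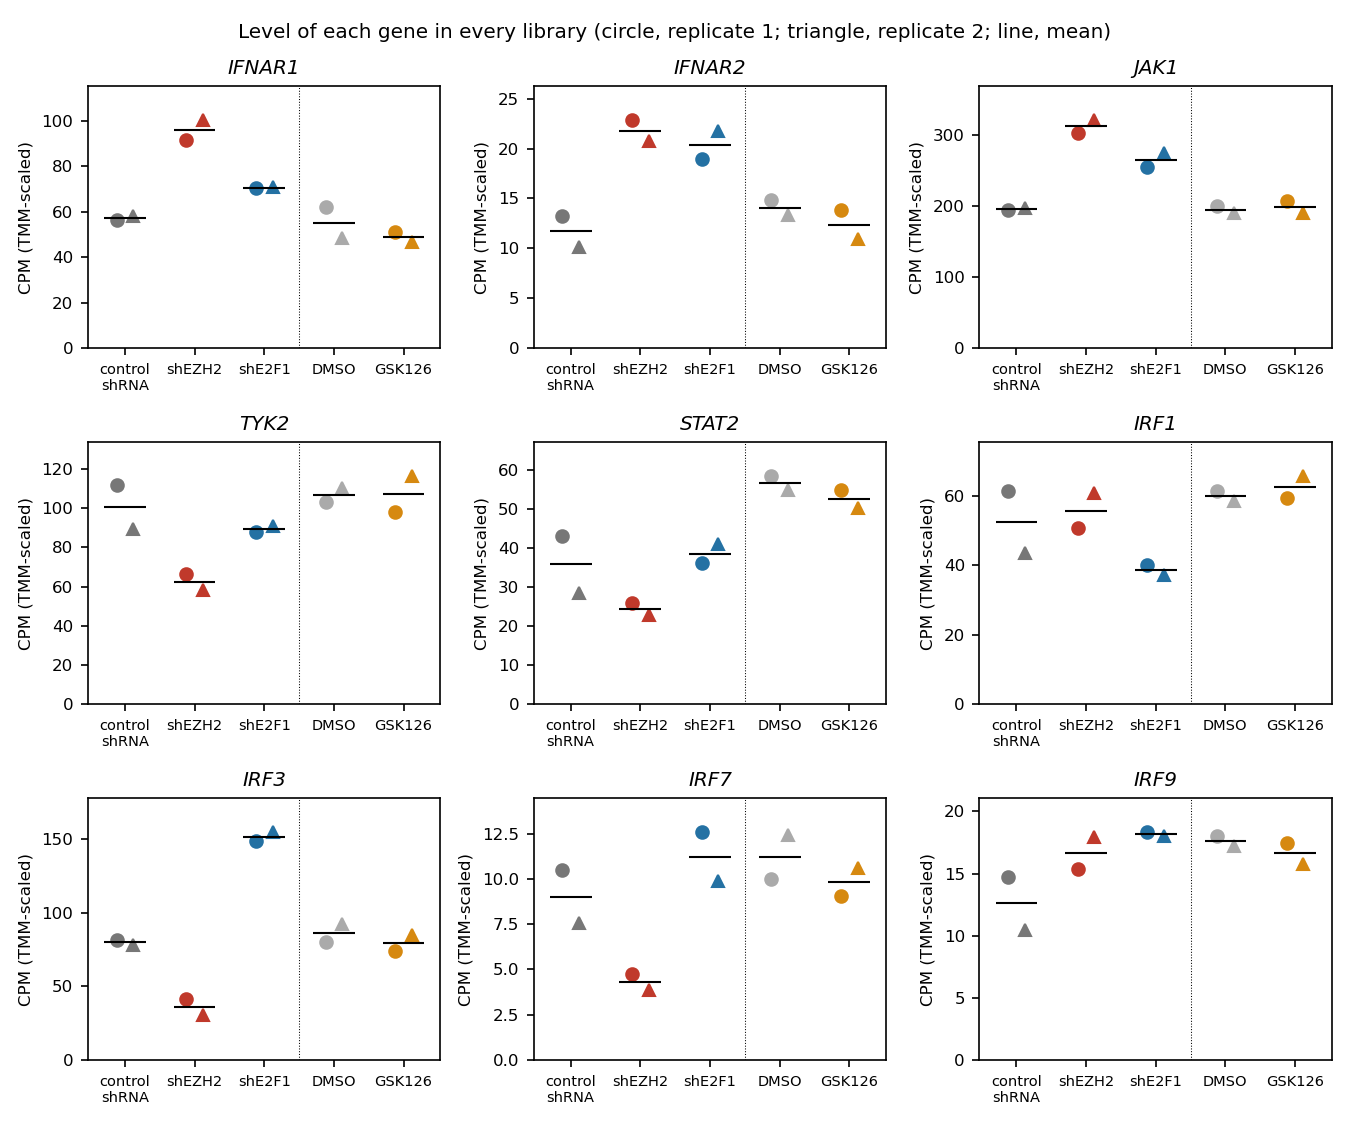
Level of each member in every library, as TMM-scaled CPM from 0, with replicate 1 as a circle, replicate 2 as a triangle and the mean of 2 as a line. A dotted line parts the knockdown from the drug experiment. IRF3 falls below both controls in shEZH2 and rises above them in shE2F1, while DMSO and GSK126 lie close together in all 9 panels.

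The first comparison asked how loss of EZH2 transcript moved these genes. In shEZH2 against control shRNA, both receptor chains and JAK1 rose, and TYK2, IRF3 and IRF7 fell. IRF3 and IRF7 were called, both lower, which is 2 of 9 members, where 18.2% of the 15373 genes tested were called. At adjusted p under 0.01 and any fold, 6 of 9 passed, where 41.7% of all genes did: 3 rose, where 20.2% of all genes rose, and 3 fell, where 21.5% fell. STAT2, IRF1 and IRF9 did not pass. The median absolute log2 change of the members was 0.70, against 0.54 over all genes tested. Knockdown and control libraries did not overlap for 4 members upward and 4 downward, where 38.2% and 39.3% of all genes did not, so that separation alone sets no member apart.

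IFNAR1 (ENSG00000142166, GRCh38 chromosome 21, 33324387 to 33359864, plus strand) binds TYK2. It was at 56.3 and 58.0 CPM in control shRNA and at 91.6 and 100 CPM in shEZH2, so that both knockdown libraries stood above both controls. The change was 0.75 ± 0.09 (SE), edgeR adjusted p = 7.43e-05, and 0.52 with the offset for GC content and length. IFNAR2 (ENSG00000159110, chromosome 21, 33205282 to 33265675, plus strand) is the chain that binds interferon most tightly and carries JAK1. It was at 13.3 and 10.1 CPM in control shRNA and at 22.8 and 20.8 CPM in shEZH2, again without overlap. Its change was 0.89 ± 0.16 (SE), edgeR adjusted p = 8.83e-04, and 0.57 with the offset. IFNAR2 was called only without control shRNA replicate 1, at 1.10. The ratio of IFNAR1 to IFNAR2 in TPM was 2.64 and 3.93 in control shRNA and 2.80 and 3.29 in shEZH2, overlapping ranges.

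The 2 kinases went opposite ways. JAK1 (ENSG00000162434, chromosome 1, 64833223 to 65067754, minus strand) serves the receptors of many cytokines. It was at 195 and 197 CPM in control shRNA and at 304 and 321 CPM in shEZH2, with both knockdown libraries well above both controls. The change was 0.67 ± 0.09 (SE), edgeR adjusted p = 9.38e-05, and 0.44 with the offset. TYK2 (ENSG00000105397, chromosome 19, 10350533 to 10380608, minus strand) was at 112 and 89.2 CPM in control shRNA and at 66.3 and 58.3 CPM in shEZH2. Both shEZH2 libraries lay below both controls. The change was -0.70 ± 0.12 (SE), edgeR adjusted p = 6.81e-04, and it was nearer to 0, at -0.38, with the offset. The ratio of JAK1 to TYK2 in TPM was 0.93 and 1.21 in control shRNA and 2.48 and 2.96 in shEZH2. TYK2 has a GC content of 60.9% and JAK1 of 46.7%, and the part of GC content in this ratio was not tested.

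**Figure D2:**
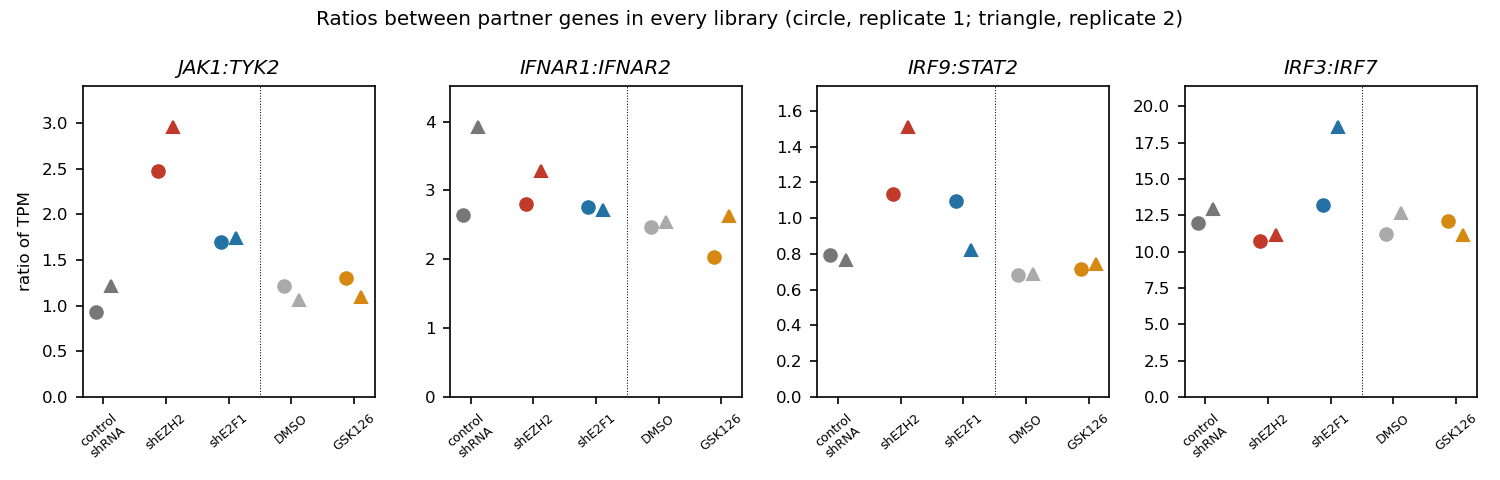
Ratios of TPM between partner genes in each library, from 0, with replicate 1 as a circle and replicate 2 as a triangle. JAK1 to TYK2 is 2.48 and 2.96 in shEZH2 and 0.93 to 1.74 in all other libraries, IFNAR1 to IFNAR2 overlaps between control shRNA and both knockdowns, IRF9 to STAT2 is highest in shEZH2 at 1.13 and 1.51, and IRF3 to IRF7 lies between 10.8 and 18.6.

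STAT2 and IRF9, the partners in ISGF3, did not pass the test in shEZH2. STAT2 (ENSG00000170581, chromosome 12, 56341597 to 56360203, minus strand) was at 43.1 and 28.5 CPM in control shRNA and at 26.0 and 22.9 CPM in shEZH2. The knockdown libraries were lower without overlap, but the controls differed from each other by more than the gap between the groups. The change was -0.56 ± 0.18 (SE), edgeR adjusted p = 0.021 and a 95% interval from -0.96 to -0.16. It was -0.23 without control shRNA replicate 1, -0.16 as a ratio of TPM, and -0.62 with the offset, where it passed at an edgeR adjusted p of 0.00527. IRF9 (ENSG00000213928, chromosome 14, 24161234 to 24168043, plus strand) was at 14.8 and 10.5 CPM in control shRNA and at 15.4 and 17.9 CPM in shEZH2. The groups did not overlap, by a small margin. The change was 0.40 ± 0.18 (SE), edgeR adjusted p = 0.0807 and a 95% interval from 0.0028 to 0.79, and it was 0.55 with the offset. Of the 50-base stretches of IRF9, 19.1% also lie in a readthrough gene, ENSG00000259529, at 3.02 and 12.9 CPM in the controls, so that the division of reads between the pair is uncertain.

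Among the factors that switch on interferon genes, IRF3 and IRF7 fell together. IRF3 (ENSG00000126456, chromosome 19, 49659569 to 49665875, minus strand) is made constantly in most cells and responds first to nucleic acid sensing. It was at 81.8 and 78.5 CPM in control shRNA and at 41.8 and 30.6 CPM in shEZH2, with both controls well above both knockdown libraries. In mean TPM it went from 112 in control shRNA to 57.4 in shEZH2, less than a 2-fold change. The change of the counts was -1.16 ± 0.13 (SE), edgeR adjusted p = 3.85e-05. With the offset for GC content and length it was -0.73, and without shEZH2 replicate 2 it was -0.94, so that in both cases IRF3 still fell but was no longer called. BCL2L12, a gene on the opposite strand that overlaps 19.3% of the exonic bases of IRF3, was at 58.9 and 61.8 CPM in control shRNA and at 51.1 and 46.3 CPM in shEZH2, a change of -0.31 with an edgeR adjusted p of 0.0178. The deposited score of assignment error was 0% of the count for IRF3 in every library. The setting for strand in the counting is not given in the sources used here, and the part of these reads in IRF3 was not tested.

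IRF7 (ENSG00000185507, chromosome 11, 612553 to 615983, minus strand) is the factor that interferon itself induces to amplify the response. It was at 10.5 and 7.54 CPM in control shRNA and at 4.75 and 3.87 CPM in shEZH2, resting on 198 and 125 counts and on 63 and 68 counts. The groups did not overlap, and the change was -1.08 ± 0.24 (SE), edgeR adjusted p = 0.00271. This call did not hold in several alternatives. Mean TPM went from 9.06 in control shRNA to 5.26 in shEZH2, less than a 2-fold change. With the offset the change was -0.42 with an edgeR adjusted p of 0.0989, without control shRNA replicate 1 it was -0.82 with an edgeR adjusted p of 0.0216, and without shEZH2 replicate 2 it was -0.92 with an edgeR adjusted p of 0.0251. IRF1 (ENSG00000125347, chromosome 5, 132440440 to 132508719, minus strand) was at 61.6 and 43.6 CPM in control shRNA and at 50.8 and 60.9 CPM in shEZH2. These groups overlapped, and the change was 0.08 ± 0.16 (SE), with a 95% interval from -0.26 to 0.43, and 0.15 with the offset.

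With the offset for GC content and length, 6 of 9 members again passed at adjusted p under 0.01 in shEZH2, but none was called. IFNAR1, IFNAR2, JAK1, TYK2 and IRF3 passed in both fits, IRF7 was lost and STAT2 was gained, and all 9 kept their sign.

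**Figure D3:**
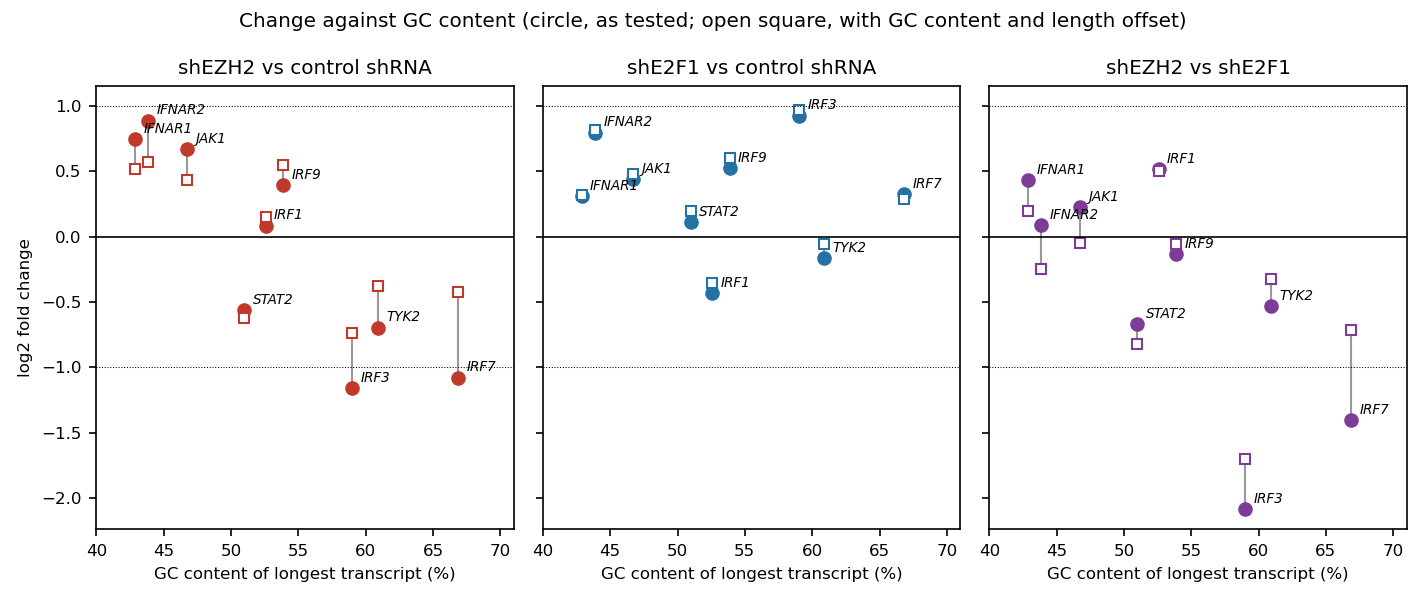
Log2 fold change of each member against the GC content of its longest transcript in percent, for 3 comparisons, as tested (circle) and with an offset for GC content and gene length (open square), with dotted lines at a 2-fold change. In shEZH2 the offset moves IRF7 from -1.08 to -0.42 and IRF3 from -1.16 to -0.73, and in shE2F1 it moves IRF3 from 0.93 to 0.97.

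The second comparison asked the same of E2F1. In shE2F1 against control shRNA, IFNAR2, JAK1 and IRF3 rose and none fell. None of the 9 members was called, where 11.6% of the 15373 genes tested were called. At adjusted p under 0.01 and any fold 3 of 9 passed, where 30.1% of all genes did, 13.6% upward and 16.5% downward, and 1 of 9 passed without either shE2F1 replicate. At an unadjusted p under 0.05 it was 6 of 9 members and 52.8% of all genes. Ranges did not overlap for 5 members upward and 1 downward, where 36.45% and 37.7% of all genes did not. This comparison uses the same 2 control libraries as the first, so that what is particular to those libraries enters both.

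IRF3 moved most. It was at 149 and 155 CPM in shE2F1 against 81.8 and 78.5 CPM in control shRNA, and both knockdown libraries stood above every other library of the series. The change was 0.93 ± 0.12 (SE), edgeR adjusted p = 1.70e-04, and 0.97 with the offset for GC content and length. BCL2L12 was at 76.7 and 79.0 CPM in shE2F1, a change of 0.38 with an edgeR adjusted p of 0.00813, and its part in IRF3 was again not tested. IRF7 was at 12.6 and 9.89 CPM, overlapping the controls, with a change of 0.32 ± 0.21 (SE) and a 95% interval from -0.15 to 0.79. IRF1 was at 40.3 and 37.3 CPM, below both controls, with a change of -0.43 ± 0.16 (SE) that missed the threshold at an edgeR adjusted p of 0.0458. It was -0.16 without control shRNA replicate 1.

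Of the receptor chains, IFNAR2 was at 18.9 and 21.8 CPM, above both controls. Its change was 0.80 ± 0.16 (SE), edgeR adjusted p = 0.00231, and without control shRNA replicate 1 it was called, at 1.01. IFNAR1 was at 70.3 and 70.8 CPM, also above both controls, with a change of 0.31 ± 0.09 (SE) and an edgeR adjusted p of 0.0194. As a log2 ratio of mean TPM that change was 0.71. IFNAR1 was not alone in this. Relative to mean CPM, mean TPM moved upward for all 9 members, in shE2F1 and also in shEZH2. From control shRNA to shE2F1, JAK1 went from a mean of 65.2 to 103 TPM and from 196 to 265.5 CPM. IRF3 went from 112 to 225 TPM and from 80.2 to 152 CPM. TYK2 went from 61.6 to 60.1 TPM and from 101 to 89.5 CPM. The cause of this shift between the scales was not tested. The length that the authors' program assigned to IFNAR1, weighted by its transcripts, was 3365 and 3405 bases in shE2F1 against 3866 and 3863 bases in the controls, and its part in the difference between the scales was not tested. JAK1 was at 256 and 276 CPM, above both controls, and rose by 0.44 ± 0.09 (SE), at an edgeR adjusted p of 0.00195. TYK2 was at 88.0 and 91.1 CPM, one library on each side of the lower control, with a change of -0.16 ± 0.12 (SE) and a 95% interval from -0.43 to 0.10.

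STAT2 stood at 36.1 and 41.1 CPM in shE2F1, between the 2 controls, with a change of 0.11 ± 0.17 (SE) and a 95% interval from -0.27 to 0.49. IRF9 was at 18.3 and 18.0 CPM, above both controls, with a change of 0.53 ± 0.17 (SE) that missed the threshold at an edgeR adjusted p of 0.0306. It was 0.80 without control shRNA replicate 1 and 0.31 without replicate 2.

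**Figure D4:**
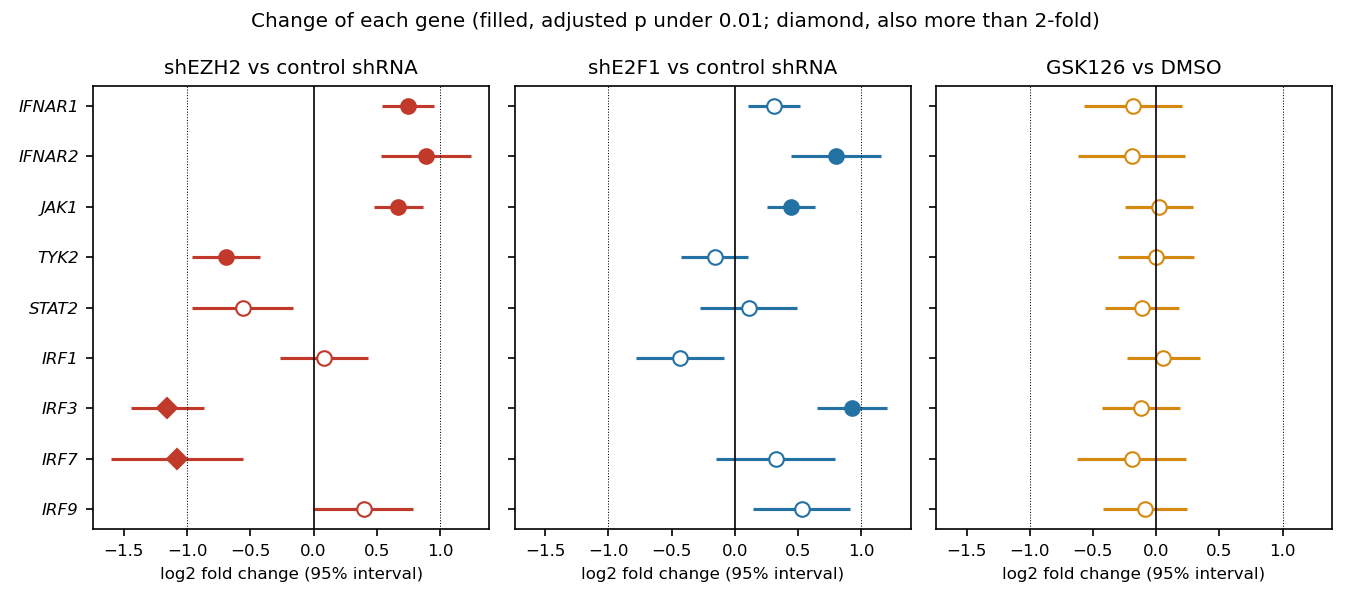
Log2 fold change of each member with its 95% interval in 3 comparisons, filled where the edgeR adjusted p is under 0.01 and drawn as a diamond where the change is also more than 2-fold. IRF3 and IRF7 are the only diamonds, in shEZH2, and every interval of GSK126 includes 0.

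Set against each other directly, the 2 knockdowns differed most in IRF3 and IRF7. In shEZH2 against shE2F1 these 2 of 9 members were called, both lower in shEZH2, where 23.3% of the 15373 genes tested were called and 12.9% were called lower. The difference for IRF3 was -2.08 ± 0.13 (SE), edgeR adjusted p = 5.94e-07, and it was -1.70 with the offset for GC content and length, where it was still called. It was called in this comparison without any 1 of the 4 libraries, at -2.31 to -1.87. For IRF7 it was -1.40 ± 0.23 (SE), edgeR adjusted p = 3.76e-04, and -0.71 with the offset, where it was not called. At adjusted p under 0.01 and any fold 5 of 9 members passed, where 46.4% of all genes did. Besides IRF3 and IRF7 these were IFNAR1 (0.43), TYK2 (-0.53) and STAT2 (-0.67), and with the offset STAT2 (-0.82) and IRF1 (0.50) passed while IFNAR1 (0.20) and TYK2 (-0.32) did not. Without shEZH2 replicate 2 or either shE2F1 replicate only 2 members passed. For IFNAR2 the difference was 0.09, with a 95% interval from -0.25 to 0.44, and it was -0.25 with the offset. JAK1 differed by 0.23 with an edgeR adjusted p of 0.0419 and by -0.05 with the offset, and IRF1 by 0.52 with an edgeR adjusted p of 0.016. IRF9 differed by -0.13, with a 95% interval from -0.51 to 0.25.

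GSK126 blocks the enzyme and leaves the transcript in place, so that the third comparison asked whether the members followed the activity. In GSK126 against DMSO none of the 9 members passed, at any fold, and none had an unadjusted p under 0.05. Over all 14632 genes tested, 0% were called by edgeR and 3.94%, or 577 genes, had an unadjusted p under 0.05, while DESeq2 called 10 genes and none of the members. The changes of the 9 ran from -0.20 (IFNAR2) to 0.06 (IRF1), each with an edgeR adjusted p of 1.00. IRF3 was at 80.0 and 92.5 CPM in DMSO and at 74.4 and 84.9 CPM in GSK126, overlapping groups with a change of -0.12 and a 95% interval from -0.43 to 0.19. IRF7 was at 10.0 and 12.4 CPM in DMSO and at 9.04 and 10.6 CPM in GSK126, with a change of -0.19 and a 95% interval from -0.62 to 0.24. These intervals lie inside a 2-fold change, as do those of the other 7 members.

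The receptor and its kinases gave similar values. IFNAR1 had 61.9 and 48.5 CPM without the drug and 51.1 and 46.5 CPM with it, while IFNAR2 had 14.8 and 13.4 CPM without and 13.8 and 10.9 CPM with the drug. All 4 libraries held JAK1 between 190 and 208 CPM, and TYK2 was at 103 and 111 CPM in DMSO and at 98.3 and 116 CPM in GSK126. STAT2 alone did not overlap between the groups, at 58.4 and 54.9 CPM without the drug against 54.8 and 50.3 CPM with it, a small gap and a change of -0.11 with a 95% interval from -0.41 to 0.18. Non-overlap of this kind held for 12.8% of all genes in the lower direction. IRF9 was at 18.0 and 17.2 CPM in DMSO and at 17.4 and 15.8 CPM in GSK126, and IRF1 was at 61.4 and 58.7 CPM and at 59.6 and 65.8 CPM. Within replicate numbers, 7 of 9 members had the same sign in both replicates, 6 of them lower in GSK126. The matching share over all genes was not computed, so that this count does not set the members apart.

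Whether knockdown and inhibitor differed was tested as the difference between the 2 effects in a fit of all 10 libraries. IFNAR2 (1.10 ± 0.25 SE, edgeR adjusted p = 0.00461) and IRF3 (-1.02 ± 0.20 SE, edgeR adjusted p = 0.00188) were called, 2 of 9 members, where 13.8% of 15773 genes were. IFNAR1 (0.94, edgeR adjusted p = 0.00178) and JAK1 (0.66, edgeR adjusted p = 0.00369) passed without the fold, so that 4 of 9 passed where 21% of all genes did. With the offset neither call held, at 0.80 for IFNAR2 and -0.58 for IRF3, while IFNAR1, IFNAR2 and JAK1 still passed at any fold. Without shEZH2 replicate 2, DMSO replicate 1 or GSK126 replicate 2 no member was called, and 1 was without either control shRNA replicate. For TYK2 (-0.68, edgeR adjusted p = 0.0127) and IRF7 (-0.87, edgeR adjusted p = 0.043) the difference missed the threshold. Knockdown also brought virus and selection, each with its own control, and the part of the experiment in these differences cannot be told apart from that of the target.

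The other genes of the pathway were grouped by function into lists and read from the same fits. Beside each count of called genes stand the shares over all genes, which were 7.52% higher and 10.7% lower in shEZH2 and 5.6% higher and 5.96% lower in shE2F1. No gene of the interferon family could be tested: of 21, 19 were at 0 in every library and 20 had no more than 3 counts in any, the exception being IFNL1 at up to 6 counts. At these depths, a gene with no count could still be present at up to 0.150 to 0.227 CPM, counting error alone considered. Of the 4 other interferon receptor chains none was called in either knockdown, and 2 rose in shEZH2, the interferon-gamma receptor chains IFNGR1 (0.80) and IFNGR2 (0.77). In shE2F1 1 of the 4 rose, again IFNGR2 (0.46). Over all genes, 20.2% rose in shEZH2 and 13.6% in shE2F1. Of 8 other JAK and STAT genes, 2 were called higher and 1 lower in shEZH2, and 4 higher and none lower in shE2F1, with medians of 0.60 and 0.62, that is 25% and 12.5% of the list in shEZH2 and 50% in shE2F1. JAK3, the kinase of the common gamma chain receptors, was called higher in both (1.64 and 2.01), at no more than 3.47 CPM in any library. STAT6, which serves interleukin-4 signalling, was called lower in shEZH2 (-1.13) and also fell in shE2F1 (-0.83), where it was not called. STAT3 was called higher in shE2F1 (1.07) and also rose in shEZH2 (0.86), where it was not called. In shEZH2 none of this list was called higher without control shRNA replicate 2 or shEZH2 replicate 2, 1 was without control shRNA replicate 1, and with the offset none was called lower. In shE2F1 2 were called higher without replicate 1.

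Among 5 other IRF genes only 2 could be tested in the knockdown fit. IRF5, a factor downstream of Toll-like receptors, was at 2.698 and 1.69 CPM in control shRNA, 0.754 and 0.398 CPM in shEZH2 and 6.03 and 6.79 CPM in shE2F1. It was called lower in shEZH2 (-1.98 ± 0.42 SE) and higher in shE2F1 (1.54 ± 0.31 SE), at levels of few CPM. The call in shEZH2 did not hold without control shRNA replicate 1 or shEZH2 replicate 2, and that in shE2F1 did not hold without control shRNA replicate 2 or either shE2F1 replicate. IRF2 rose in shEZH2 by 0.81 and was not called.

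Of 13 feedback and negative regulators, 2 were called lower and none higher in shEZH2, and 3 lower and 1 higher in shE2F1, with medians of -0.18 and -0.22. In shEZH2 this was 15.4% lower against 10.7% of all genes, a share near the background, and in shE2F1 23.1% lower and 7.69% higher against 5.96% and 5.6%. The 1 called higher in shE2F1 was 0 without shE2F1 replicate 1 and 2 without control shRNA replicate 1. Without shEZH2 replicate 2, 4 were called lower in shEZH2, and 3 were without control shRNA replicate 2. SOCS2 (-1.49) and the phosphatase PTPN6 (-2.12) were those in shEZH2. In shE2F1 the 3 were SOCS3 (-1.23), an inhibitor of JAK kinases that STAT proteins induce, the phosphatase PTPN1 (-1.26), which acts on JAK2 and TYK2, and PIAS3 (-1.23), an inhibitor of STAT3. Of 10 kinases and adaptors upstream of IRF3 and IRF7, 1 was called lower in shEZH2, or 10%, where 10.7% of all genes were. This share is near the background. The gene was IKBKE (-1.47), a kinase that phosphorylates both factors, and 2 of the 10 were called lower without control shRNA replicate 2. At adjusted p under 0.01 and any fold, 4 of the 10 fell and 2 rose in shEZH2, where 21.5% and 20.2% of all genes did. STING1, the adaptor of cytosolic DNA sensing, was called higher in shE2F1 (1.72), from 54.4 and 47.7 CPM to 165 and 170 CPM. That is 10% of the list, where 5.6% of all genes were called higher. STING1 also fell in shEZH2 (-0.91, edgeR adjusted p = 5.56e-05) without being called.

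Of the target genes of ISGF3, more were called lower than higher in shEZH2, and the reverse held in shE2F1. Of 39 tested, 12 were called lower and 1 higher in shEZH2, where 10.7% of all genes were called lower and 7.52% higher. In shE2F1 10 were called higher and none lower, where 5.6% and 5.96% of all genes were. Their median change was -0.59 in shEZH2 and 0.40 in shE2F1, against -0.02 and -4.92e-04 over all genes, and the list was chosen with results of these data known. IFIT1, an antiviral RNA-binding protein, went from 76.1 and 72.3 CPM in control shRNA to 11.6 and 8.82 CPM in shEZH2 (-2.88 ± 0.14 SE, edgeR adjusted p = 5.85e-07). BST2, which tethers budding virus to the cell, was at 68.1 and 57.7 CPM and at 13.8 and 12.9 CPM (-2.24). IFIT2 was at 88.0 and 67.4 CPM in control shRNA and at 223 and 220 CPM in shE2F1 (1.52). PARP12 was called higher in both knockdowns, by 1.69 and 1.18.

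These counts moved little with the offset, with 12 lower and 1 higher in shEZH2 and 10 higher in shE2F1. Without control shRNA replicate 1, 9 were lower in shEZH2 and 12 were higher in shE2F1, and without control shRNA replicate 2 or either shE2F1 replicate 6 or 7 were higher there. Control shRNA replicate 1 was the higher of the controls for 34 of the 39. No target of ISGF3 was called under GSK126, where 38 were tested and their median was -0.04.

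Targets of IRF1 and interferon-gamma gave no common direction. Of 17 tested, 3 were called lower and none higher in shEZH2, and 3 higher and 3 lower in shE2F1. As shares these were 17.6% lower in shEZH2, against 10.7% of all genes, and 17.6% each way in shE2F1, against 5.6% and 5.96%. Those lower in shEZH2 were the immunoproteasome subunit PSMB10 (-1.48), CIITA (-1.10), which activates MHC class II genes, and GBP4 (-1.43). In shE2F1 the genes called lower were GBP1 (-2.89), a GTPase induced by interferon-gamma, CIITA (-2.39) and CD274 (-1.50), which encodes the ligand PD-L1. Those called higher there were GBP5 (2.34), CXCL11 (3.75) and GBP4 (1.425), the last of which was called lower in shEZH2. Without control shRNA replicate 2, or without either shE2F1 replicate, none of this list was called higher in shE2F1 and 3 were called lower.

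**Figure D5:**
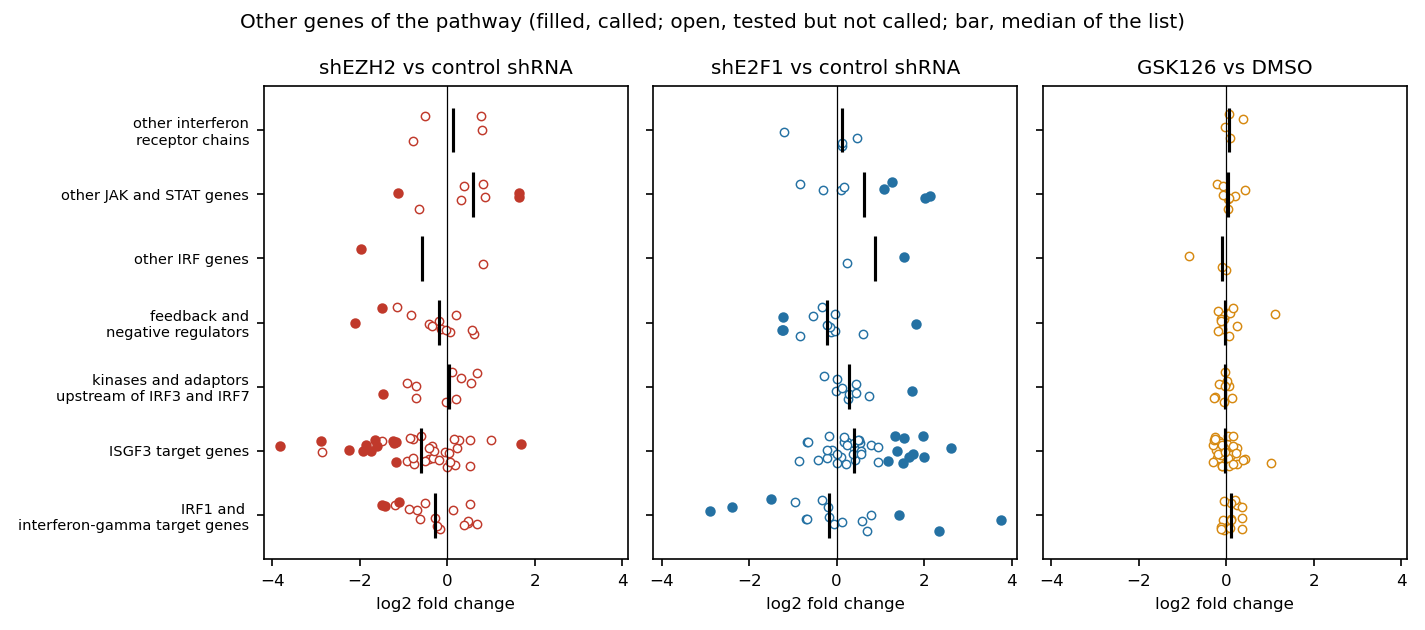
Log2 fold change of each tested gene of 7 pathway lists in 3 comparisons, filled where called, with a bar at the list's median and random vertical spread within a list. Targets of ISGF3 lie to the left in shEZH2 (median -0.59) and to the right in shE2F1 (median 0.40), and no gene of any list is called under GSK126.

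For the 3 members called in any comparison, the genes most alike over the 10 libraries were found by Pearson's r of log2 CPM among 9470 or 9471 genes, as a description. The points share libraries and the knockdowns dominate them. For IRF3 these were LEMD2 (0.995) and ATP6V0C (0.994), for IRF7 they were CLIC3 (0.988) and NAGLU (0.985), and for IFNAR2 they were GRAMD2B (0.970) and TIMP2 (0.970).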

How the data were processed

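Poly(A) RNA from MDA-MB-231 was made into libraries with a directional kit and sequenced. Of 18 sample records, 8 repeated another value for value, and each of the 10 distinct libraries was used once. Per the study's methods and the labels, the authors aligned reads with STAR to hg38 and quantified genes of Ensembl release 108 with RSEM (version 1.3.1 in the submitters' processing notes, which give STAR 2.7.2b). The deposited files hold expected counts, in which reads that map to several genes are divided between them, and TPM, scaled by the authors for transcript length and library total. They also give gene and effective lengths, and per the file headers a posterior SD of each count, a score of assignment error that was at most 4.07% of the count for any member.

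Expected counts were rounded and tested with edgeR 4.0.16 in R 4.3.3, after filterByExpr and TMM scaling, with the quasi-likelihood test, and p was adjusted by Benjamini-Hochberg across all genes tested. One fit held the 6 knockdown libraries, another the 4 drug libraries and a last one all 10, for the difference between knockdown and inhibitor. Calls needed an adjusted p under 0.01 and a change over 2-fold, the thresholds of the study, which used DESeq2. DESeq2 1.42.0 was an alternative here. edgeR estimated a biological coefficient of variation of 0.095 for knockdown and 0.126 for drug libraries. The scripts were tested on simulated data.

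Gene names and GRCh38 positions came from GENCODE release 44, where 99.9% of identifiers matched, and promoters from RefSeq. For GC content and length the longest transcript was used, and the offset used splines with 5 degrees of freedom. Members and pathway lists were chosen with earlier results of these data known. Named genes were all members, up to 3 called genes per list and knockdown with the smallest adjusted p, and the 2 genes most alike each called member with a mean of at least 200 counts. Genes that make up a smaller count were named after their values were seen. A gene with 0 counts could be at up to 3 counts, 0.150 to 0.227 CPM by library, from counting error alone. Alternatives were DESeq2, its size factors, other filters on low counts, other libraries in the fit, the replicate as a block, offsets for GC content with length and for effective length, TPM, a looser threshold, and leaving out each library. Counts at any fold and counts of lists under these alternatives were added after the data were seen.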

Additional observations from a re-analysis of the deposited data

Results flagged for a closer look

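The effect of EZH2 knockdown differed from that of GSK126 by more than 2-fold, at an edgeR adjusted p under 0.01, for 2 members. The difference was tested in a fit of all 10 libraries, where 4 members passed at any fold. For IFNAR2 the knockdown effect was higher by 1.096, and for IRF3 it was lower, at -1.024. With the offset for GC content and length these were 0.80 and -0.58. Leaving out 1 library gave 0.91 to 1.31 for IFNAR2 and -1.25 to -0.82 for IRF3. IFNAR2 was not called without control shRNA replicate 2, either shEZH2 replicate, DMSO replicate 1 or GSK126 replicate 2, and IRF3 was not without control shRNA replicate 1, shEZH2 replicate 2, DMSO replicate 1 or GSK126 replicate 2. Virus and selection were present on the knockdown side only and cannot be told apart from the target.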

How the results depend on the processing

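With 2 libraries a group, calls of single members rest on each library, and members near a 2-fold change cross it easily. For shEZH2 against control, 2 members were called. None was with the offset for GC content and length, alone or with the replicate block, 1 was with the effective length offset, and 7 passed at adjusted p under 0.05 and any fold. For shE2F1, where none was called, 6 passed at that looser threshold, and 5 passed at adjusted p under 0.01 with no filter on low counts against 3. For shEZH2 against shE2F1, 1 of 2 calls was left with the GC and length offset, alone or with the block, and 7 members passed at the looser threshold. At adjusted p under 0.01 and any fold 3 passed with the block and that offset and 2 with the effective length offset, against 5. For the knockdown effect minus the GSK126 effect, 1 of 2 calls was left with DESeq2 and with its size factors, none with the GC and length offset, with the block and that offset or with the effective length offset, and 6 members passed at the looser threshold. Over all genes the looser threshold gave 8550, 6879, 9267 and 5780 genes in these 4 comparisons.

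The drug libraries with the same replicate number deviated together (r = 0.57 over 13331 genes), and the knockdown libraries did so weakly (r = 0.02 to 0.14), with 2 numbers only. With the replicate block GSK126 called 68 genes, 72 with the GC and length offset too, and 0 without it, against 10 in DESeq2 and 37 to 43 without 1 library, and no member in any of these. At adjusted p under 0.01 and any fold, that block under GSK126 gave 4 of 38 ISGF3 targets and 2 of 10 upstream kinases and adaptors as lower and 4 of 15 IRF1 and interferon-gamma targets as higher, none more than 2-fold, where 532 of 14632 genes were higher and 632 lower. The block alone changed the call of no member in any comparison, though 6 members against 4 passed at any fold in the knockdown effect minus the GSK126 effect.

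Some values changed sign, none of which had passed. For IFNAR2 and JAK1 between the knockdowns, they were -0.25 and -0.0462 with the GC and length offset and -0.25 and -0.0470 with the block too, and IRF1 was -0.0282 in shEZH2 and -0.23 in the difference from GSK126 with the effective length offset. Under GSK126, TYK2 was 6.16e-04 and became -0.0105 (DESeq2), -0.0063 (its size factors), -0.0138 (no filter), -0.0025 (block), -0.0241 (GC and length), -0.0255 (block, GC and length) and -0.0386 (effective length), and JAK1 became -0.0108 and -0.0100 with the GC and length offset, alone and with the block. The causes were not tested.

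Leaving out 1 library gave 0 to 2 members called and 5 to 7 at any fold in shEZH2, 0 to 1 and 1 to 4 in shE2F1, 2 and 2 to 4 between the knockdowns, 0 and 0 for GSK126, and 0 to 3 and 0 to 5 for the difference from GSK126. Genes called were 2015 to 2923, 1281 to 1643, 2814 to 3558, 37 to 43 and 1305 to 2414. Sign changed for IRF1 in shEZH2 (-0.14 to 0.36), TYK2 (-0.31 to 0.0142) and STAT2 (-0.15 to 0.44) in shE2F1, IFNAR2 between the knockdowns (-0.0085 to 0.20), IFNAR1 (-0.35 to 0.0165), JAK1 (-0.0481 to 0.10), TYK2 (-0.11 to 0.11) and IRF1 (-0.0034 to 0.12) under GSK126, and IRF1 in the difference (-0.20 to 0.31). IRF7, with 63 counts in its lowest library, was limited most by depth.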
